A study of Danio rerio with 12 samples.

Results

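Crowded runs of open chromatin are stretches of the zebrafish genome in which accessible regions stand close beside each other. A region was counted as crowded when at least 8 other regions of the same table had their midpoints within 50000 bp of its own. It also had to be at least 500 bp and under 4000 bp wide and to lie on chromosomes 1 to 25, without chromosome 4. By this rule 1645 of the 35040 regions of the TDCIPP table and 3524 of the 45019 regions of the DAC table were crowded. The rule used position and width, and no fold, p-value or read level. The other regions of the same chromosomes and width range (25654 for TDCIPP and 30741 for DAC) served for comparison.

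The regions come from ATAC-seq, in which a transposase cuts and tags open DNA, on nuclei of whole wild-type AB/Tuebingen embryos at 6 hours post fertilization. Newly laid eggs, about 50 per well, were exposed to 3.12 µM TDCIPP, an organophosphate flame retardant, or to 100 µM DAC (decitabine), a cytidine analog that blocks DNA methyltransferases. Each compound had its own controls in 0.1% DMSO, the solvent, and the 4 groups (TDCIPP, its DMSO controls, DAC, its DMSO controls) held 3 libraries each. Both tables give a level per group and region, the log2 of the group's mean normalized read count, and a log2 fold of treated over DMSO, but no values of single libraries. Replicate spread is thus seen only in the p-values that the authors deposited. The labels do not say whether libraries of a group came from separate clutches, so these p-values measure spread between libraries that may be technical. Normalized reads in all regions summed, on average per library, to 7.75 M after TDCIPP and 7.91 M in its DMSO controls. The DAC table held fewer reads, at 2.07 M after DAC and 1.88 M in DMSO.

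Accessible regions mark promoters, enhancers and other places where nucleosomes are moved aside. In animal genomes they gather where several enhancers serve a developmental gene, where copies of a gene family stand in tandem, and where repeated DNA is laid out in arrays. At this stage of zebrafish development the embryo's own genome has been switched on and gastrulation begins. H2A.Z, the histone variant in the title of the study, sits in nucleosomes beside promoters and is known in early zebrafish embryos to mark places kept free of DNA methylation. No gene annotation of the GRCz11 build was used here, so runs are given by position and not by gene.

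Regions with more neighbours held more reads, apart from the most crowded class of the DAC table. Crowded regions of the TDCIPP table had a median level of 7.35 (163 normalized reads), against 6.36 (82.1 reads) in the comparison regions of the authors' deposited table. They were also wider, with a median of 1298 bp against 1165 bp, and their reads per kb had a median of 119 against 70.2. In the DAC table the median level was 4.65 (25.1 reads) for crowded regions and 4.13 (17.5 reads) for comparison regions, by the authors' deposited table. Median level was higher in each further class of neighbours in the TDCIPP table, being 6.04 among 2752 regions with no neighbour within 50 kb and 9.64 among the 54 regions with 16 or more, in the authors' deposited table. In the DAC table it was 3.97 with no neighbour, 5.31 among the 460 regions with 12 to 15, and 4.80 among the 23 regions with 16 or more, by the authors' deposited table.

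Crowding was most pronounced on chromosome 25, where 96 of 839 regions of the width range (11.4%) were crowded for TDCIPP and 161 of 1075 for DAC. It was least frequent on chromosome 18, with 7 of 847 regions (0.826%) for TDCIPP and 74 of 1153 (6.42%) for DAC. Crowded regions also lay near chromosome ends. Within 1 Mb of the outermost region of their chromosome lay 22.4% of the crowded and 6.72% of the comparison regions of the TDCIPP table, and 38.4% and 5.73% in the DAC table.

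The rule counts neighbours within a table, and the DAC table holds more regions and more crowded ones. Of the 1645 crowded regions of the TDCIPP table, 867 (52.7%) shared at least 1 base with a crowded region of the DAC table. Seen from the DAC table, 888 of 3524 (25.2%) shared a base with a crowded region of the TDCIPP table. The regions with the most neighbours lay on chromosome 3 in both tables, but in different places. In the TDCIPP table the 3 regions taken for this had 23 neighbours each, and whether more regions had 23 was not counted. The first of the 3 lay at 39026743 to 39027790, with a level of 8.89 after TDCIPP and 8.72 in DMSO (adjusted p = 0.935) in the authors' deposited table. In the DAC table the region at 23703438 to 23704238 had 19 neighbours, with a level of 4.36 after DAC and 4.69 in DMSO (adjusted p = 1) in the authors' deposited table.

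After TDCIPP, 67 crowded regions were called lower and 9 higher than in DMSO at an adjusted p under 0.05 in the authors' deposited table. That is 4.07% of crowded regions lower, against 0.916% over the whole table, and 0.547% higher, against 0.362%. Comparison regions, weighted so that their levels were spread over 20 classes like those of the crowded regions, had 1.71% lower and 0.409% higher. Taking unadjusted p-values under 0.05 from the authors' deposited table, 233 crowded regions (14.2%) were lower and 91 (5.53%) higher, against 5.16% and 4.77% over the whole table. In these embryos, fewer cells with an open region and less opening per cell cannot be told apart. The median fold of crowded regions was -0.04 (quartiles -0.20 to 0.11), against -0.03 in comparison regions of like level, in the authors' deposited table. Folds below 0 were found in 55.7% of crowded regions and in 54.7% of comparison regions of like level. Crowded regions thus differed from these weighted regions in the share called lower and hardly in their median fold. Neither difference was tested, because regions are not replicates. Levels were also not alike within the highest of the 20 classes. It held 71 crowded and 50 comparison regions at a level of 11 and above, but 183 and 771 between 9 and 10.

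**Figure D1:**
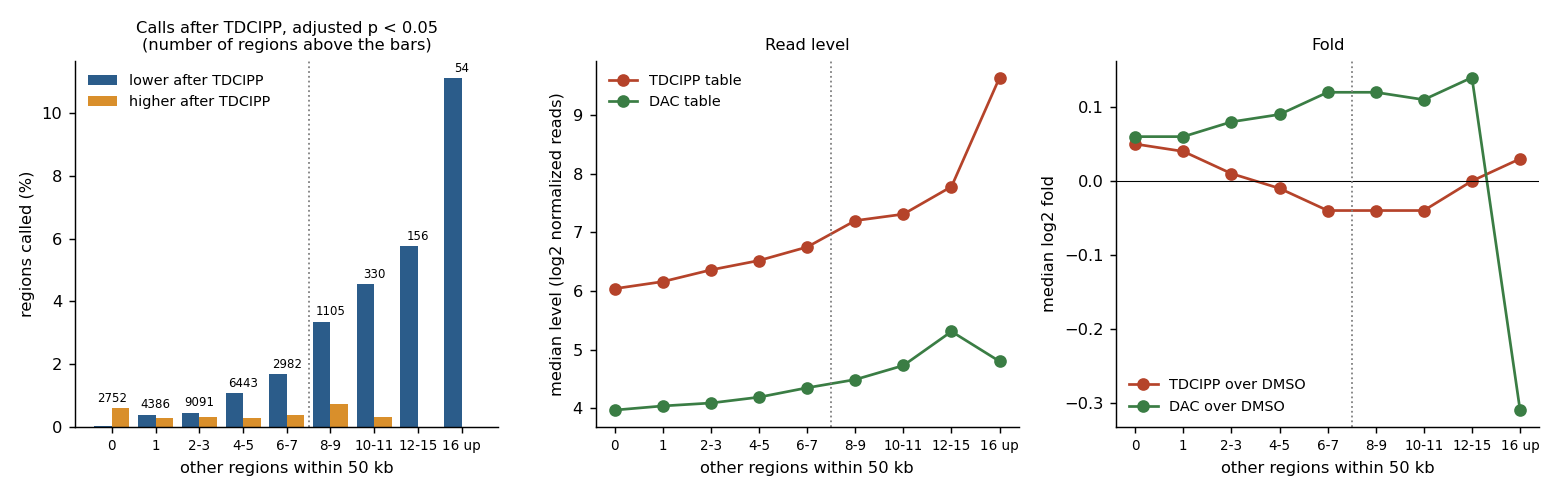
Regions grouped by the number of other regions within 50 kb (horizontal axis), with crowded regions right of the dotted line. The left panel gives the percent of regions called lower or higher after TDCIPP. It was 11.1% lower among the 54 regions with 16 or more neighbours, nearly all of these falls being from 1 run of chromosome 17. The middle panel gives the median level in each table, and the right panel the median log2 fold of treated over DMSO.

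The share called lower was higher with each further class of neighbours. It was 0.0363% (1 region) with no neighbour, 1.68% with 6 or 7, 3.35% with 8 or 9, 5.77% with 12 to 15 and 11.1% (6 of 54) with 16 or more. Median level was also higher in each further class, from 6.04 to 9.64 in the authors' deposited table. These classes were not matched for level, and its part in the share was not tested. Runs reaching 16 neighbours held falls only on chromosome 17 from 23309741 to 23386888 (9) and chromosome 25 from 18781452 to 18867856 (1). Nearly all of the 6 were thus regions of 1 run. Just outside the rule, the 1186 regions with 7 neighbours held 23 regions called lower (1.94%) and 0 called higher, with a median level of 6.83 in the authors' deposited table. Just inside it, the 696 regions with 8 neighbours held 27 called lower (3.88%) and 6 called higher, with a median level of 7.18 in the authors' deposited table. The median TDCIPP fold did not follow the same course: it was 0.05 with no neighbour, -0.04 with 8 to 11 and 0.03 with 16 or more, in the authors' deposited table.

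Regions called lower were more frequent at high levels in crowded and comparison regions alike. In percentage points the sets differed most at a level of 11 and above, while as a ratio of shares they differed most between 7 and 8. In the TDCIPP table every region with a level below 5.71 has an adjusted p of 1, so that it could not be called. At or above that level were 1436 of the 1645 crowded regions (87.3%) and 25638 of the 35040 regions of the whole table. Among regions at or above it, 4.67% of crowded regions were called lower, against 1.93% of comparison regions of like level. Between levels 8 and 9, 7 of 303 crowded regions (2.31%) were called lower, against 49 of 2302 comparison regions (2.13%), and between 9 and 10 the shares were 3.83% against 3.76%. Between 7 and 8 they were 2.93% (10 of 341) against 1.08% (52 of 4830). Between 10 and 11, 9 of 59 crowded regions (15.3%) were called lower, against 13 of 190 comparison regions (6.84%). At 11 and above, 32 of 71 crowded regions (45.1%) were called lower, against 10 of 50 comparison regions. The median folds there were -0.29 in crowded and -0.11 in comparison regions, by the authors' deposited table. These 71 regions came from 11 runs, and 64 of them from 7 runs. Levels of 10 and above were found in 7.90% of crowded regions and in 0.935% of comparison regions, and 41 of the 67 crowded regions called lower were among them. Below a level of 10, 26 of 1515 crowded regions (1.72%) were called lower, against 1.21% of comparison regions of like level.

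**Figure D2:**
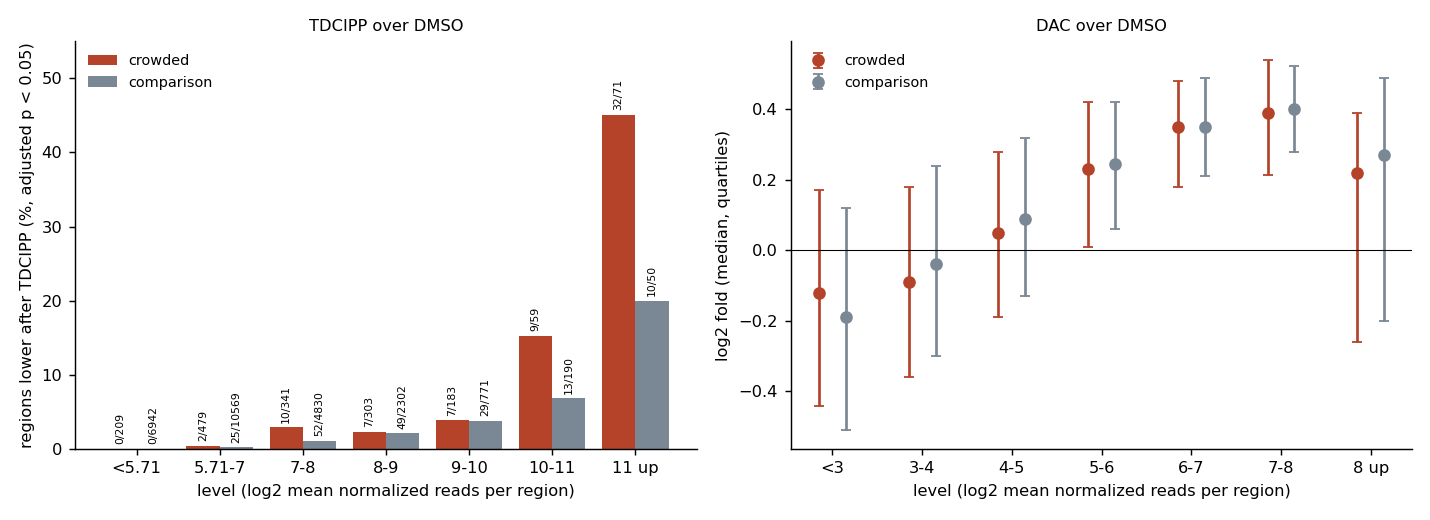
Crowded and comparison regions in classes of read level (horizontal axis, log2 mean normalized reads per region). The left panel gives the percent called lower after TDCIPP, with counts above the bars, where 32 of 71 crowded and 10 of 50 comparison regions stand at levels of 11 and above. The right panel gives median DAC folds with quartiles, which are higher at higher levels in both sets up to a level of 8.

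Among the 67 falls, log2 folds lay between -0.98 and -0.32 (median -0.44), with a median level of 10.65 and a median width of 1926 bp in the authors' deposited table. The largest lay on chromosome 10 at 44994572 to 44997297, with a level of 8.77 (437 reads) after TDCIPP and 9.75 (861 reads) in DMSO (log2 fold -0.98, adjusted p = 1.32e-09) in the authors' deposited table. A second region of chromosome 10, at 29854217 to 29855758, had a level of 8.03 after TDCIPP and 8.94 in DMSO (adjusted p = 1.02e-07) in the authors' deposited table. A chromosome 19 region, from 5368451 to 5370464, had 186 reads after TDCIPP and 338 in DMSO (log2 fold -0.86, adjusted p = 3.32e-08), by the authors' deposited table. Its neighbour at 5335124 to 5336800 was much weaker in reads, with 46.5 after TDCIPP and 78.3 in DMSO (log2 fold -0.75, adjusted p = 0.0345), in the authors' deposited table. On chromosome 24, regions at 41788587 to 41790139 and at 42054284 to 42055598 had log2 folds of -0.73 and -0.68 (adjusted p = 0.0126 and 0.00911) in the authors' deposited table. All 6 had 8 or 9 neighbours, and 30 of the 67 falls had 10 or more.

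Among the 9 rises, log2 folds lay between 0.46 and 1.04 (median 0.54), with a median level of 7.71 in the authors' deposited table. The largest lay on chromosome 7 at 48645168 to 48645820, with a level of 6.22 (74.5 reads) after TDCIPP and 5.17 (36.0 reads) in DMSO (adjusted p = 0.0153) in the authors' deposited table. The rises with the smallest p were neighbours on chromosome 19. The region at 25744330 to 25745719 had 252 reads after TDCIPP and 132 in DMSO (log2 fold 0.94, adjusted p = 3.26e-07) in the authors' deposited table. The region at 25737820 to 25740810 had 338 reads after TDCIPP and 209 in DMSO (log2 fold 0.69, adjusted p = 0.00011) in the authors' deposited table. Further regions were called higher at 28119292 to 28120036 (log2 fold 0.74) and at 19465219 to 19466862 (0.50) of chromosome 2, and at 5542548 to 5544154 of chromosome 13 (0.54), by the authors' deposited table. Of the 9 rises, 1 had 10 or more neighbours.

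Crowded regions were joined into runs where consecutive midpoints lay within 50000 bp. The TDCIPP table held 275 runs, with a median of 5 crowded regions and a median length of 38.8 kb, and the longest was 215 kb. The DAC table held 478 runs, with the same median of 5 regions, a median length of 45.7 kb and a longest run of 514 kb. Runs with at least 5 crowded regions numbered 140 for TDCIPP and 252 for DAC.

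Neighbouring crowded regions had folds of the same sign more often than neighbouring comparison regions, after both compounds, a description without a test. Of consecutive crowded regions at most 50000 bp apart, 66.4% of pairs in the TDCIPP table had folds of the same sign, against 57.2% of consecutive comparison regions. Pairs with a fold of 0 were left out of all these shares, but not of the correlations. Within 10000 bp the shares were 69.5% against 61.0%. In the DAC table they were 66.6% against 57.4% within 50000 bp, and 69.0% against 59.9% within 10000 bp. Crowded pairs within 50000 bp were closer, with a median distance of 6929 bp against 15186 bp in the TDCIPP table. In the DAC table it was 7388 bp against 15387 bp. Pairs were not matched for read level, which was higher in crowded regions. The correlation of the folds of such pairs within 10000 bp was 0.473 over 938 crowded pairs and 0.301 over 5986 comparison pairs in the TDCIPP table, and 0.395 over 1985 crowded and 0.235 over 7551 comparison pairs in the DAC table. Neighbouring regions share libraries, and their levels were also more alike in crowded pairs, with correlations of 0.705 against 0.338 in the TDCIPP table and 0.560 against 0.333 in the DAC table. The part of this likeness of levels, of distance and of read level in the likeness of folds was not tested.

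Falls after TDCIPP were gathered in few runs. The 67 falls lay in 25 of the 275 runs and the 9 rises in 8 other runs. Because both kinds of run were few, the count of 0 runs holding both says little, and it was not tested. The 4 runs with the most falls held 33 of the 67 (49.3%), and 11 runs with 2 or more falls held 53. By chromosome, 18 of 139 crowded regions were called lower on chromosome 7 and 17 of 96 on chromosome 25. Against this stood 67 of 1645 crowded regions in all and 0.916% of the whole table. The share called lower among comparison regions of these 2 chromosomes was not counted, so the gathering may not be particular to crowded regions. Of the 17 on chromosome 25, single runs held 9 and 7. Of the 275 runs, 250 held no fall.

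On chromosome 25 the run from 36291982 to 36377909 had 11 crowded regions, of which 9 were called lower. Its median level was 11.63 after TDCIPP and 12.01 in DMSO, and folds ran from -0.46 to 0.06 in the authors' deposited table. The 2 regions not called stood at the ends of this run and had levels of 7.71 and 6.02, while the 9 called had levels between 11.29 and 12.80, in the authors' deposited table. The second run of chromosome 25, from 35019929 to 35156434, had 13 crowded regions and 7 falls, with a median level of 11.68 after TDCIPP and 12.10 in DMSO in the authors' deposited table. On chromosome 17 from 23309741 to 23386888, all 17 crowded regions had folds below 0 (-0.56 to -0.18) and 9 were called, with a median level of 10.57 after TDCIPP and 10.82 in DMSO, in the authors' deposited table. A chromosome 7 run, from 6350282 to 6460949, had 16 crowded regions and 8 falls. Its 3 regions with folds above 0 had levels of 5.86, 6.94 and 9.08 in the authors' deposited table and stood together in the middle of the run, and its falls all had levels above 10. Among runs with at least 5 crowded regions the lowest median fold, -0.47, was that on chromosome 7 from 73813205 to 73859486, where 7 of 7 folds were below 0 and 5 were called, in the authors' deposited table.

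High read levels were not always accompanied by falls. The run of chromosome 2 from 14660281 to 14837352 had 23 crowded regions and a median level of 11.71 after TDCIPP and 11.90 in DMSO. It had 0 calls and folds from -0.41 to 0.43, in the authors' deposited table. Of its crowded regions 10 had an unadjusted p under 0.05, and the lowest adjusted p was 0.0812. The run of chromosome 10 from 16794028 to 16840734 had a median level of 10.93 after TDCIPP and 10.63 in DMSO, and 7 of 7 folds between 0.30 and 0.46, of which 1 was called higher (adjusted p = 0.0423), in the authors' deposited table. Falls also lay at levels below 10: the chromosome 19 run from 5335124 to 5402462 had 7 of 7 folds below 0 and 3 falls. The median level of this run was 5.54 after TDCIPP and 6.29 in DMSO, in the authors' deposited table. Its 3 falls had levels of 5.96, 8.03 and 8.36, and its uncalled regions levels between 5.23 and 7.65. Uncalled regions with levels of 5.23, 5.49 and 5.57 lay below 5.71, under which no region could be called. Folds of the run lay between -0.86 and -0.18 in the authors' deposited table.

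Other runs had folds of the same sign throughout, with few calls or none. On chromosome 15 from 9639800 to 9847564, 17 of 17 crowded regions had folds below 0, from -0.34 to -0.07, in the authors' deposited table. Of these, 7 had an unadjusted p under 0.05 and 0 were called. On chromosome 12 from 14325978 to 14413351, 14 of 14 had folds above 0 (median 0.36), the lowest unadjusted p being 0.00922 and 0 being called, in the authors' deposited table. Folds there were largest, up to 0.90, towards the lower coordinates of the run and 0.14 at its other end, by the authors' deposited table. Levels differed as well: folds of 0.70 and above had levels between 4.20 and 5.58, and the folds of 0.14 levels of 8.54 and 7.34. Regions with these folds of 0.70 and above thus lay below 5.71, a level under which no region could be called. The chromosome 2 run from 19429200 to 19483509 had the same median of 0.36, with 6 of 6 folds above 0 and 1 called, in the authors' deposited table. In all, 8 of the 140 runs with at least 5 crowded regions had every fold below 0 and 6 had every fold above 0. The largest run, on chromosome 3 from 23555213 to 23770328 with 25 crowded regions, had folds on both sides of 0 (-0.36 to 0.29, median 0.02) and 0 calls, in the authors' deposited table. The next largest were mixed as well. The chromosome 3 run from 38983106 to 39101294, which holds the regions with 23 neighbours, had 20 of 23 folds above 0 (median 0.12). The chromosome 15 run from 7175436 to 7318079 had 18 of 22 below 0 (median -0.23), by the authors' deposited table. An unadjusted p under 0.05 was found at 2 crowded regions of the former and 11 of the latter, with 0 calls. At the end of chromosome 14, from 8210 to 193813, 2 of 22 crowded regions were called lower, while 10 had folds above 0. Runs of 20 crowded regions on chromosome 22 from 544072 to 737664, of 18 on chromosome 7 from 21703198 to 21870405 and of 18 on chromosome 23 from 36046729 to 36151530 had 0 calls and median folds of -0.09, -0.05 and 0.06 in the authors' deposited table. Rises stood more alone: the run with the most, 2 of 4 crowded regions, was that of chromosome 19 from 25723956 to 25751772, and the rise of chromosome 24 at 81972 to 84732 (log2 fold 0.47) was the only crowded region of its run, by the authors' deposited table.

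**Figure D3:**
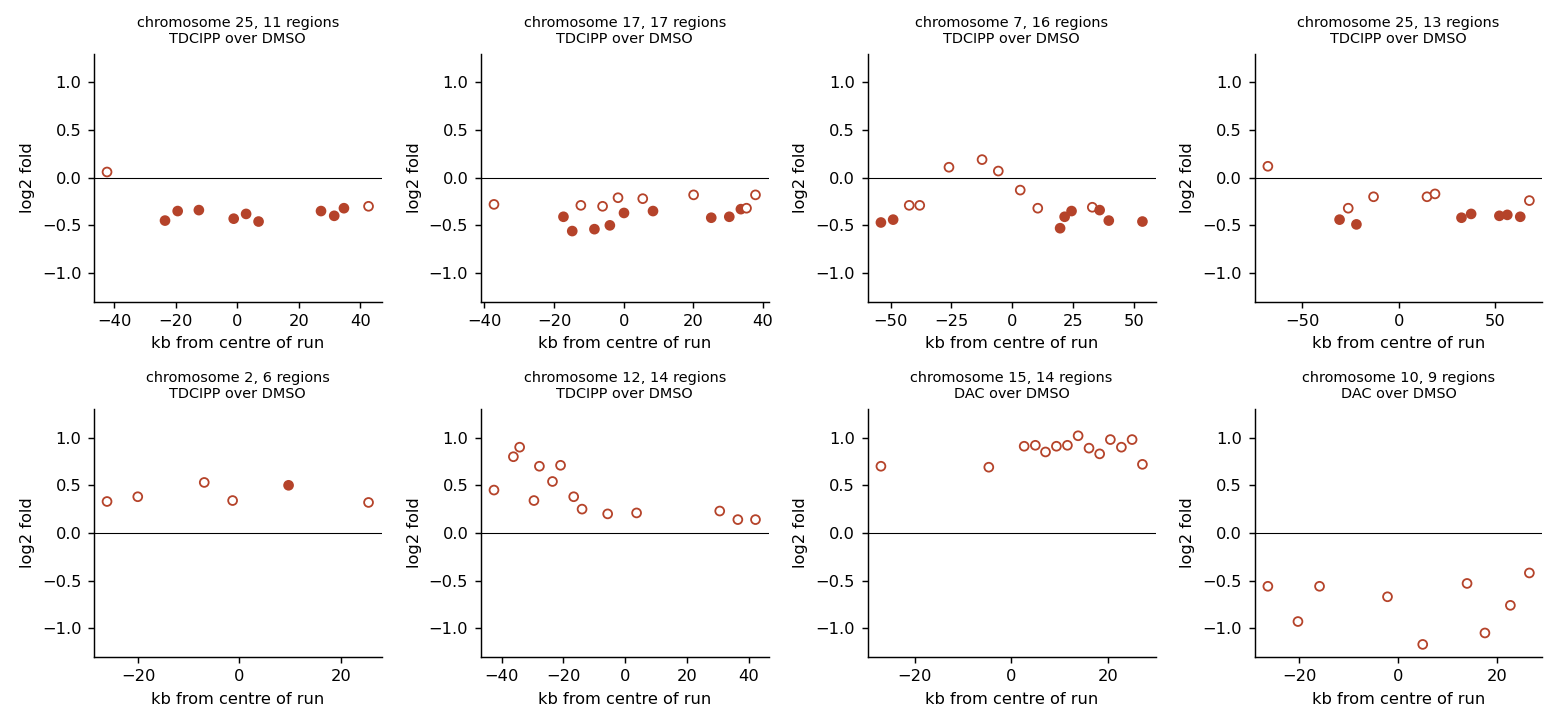
Log2 folds of the crowded regions along 8 runs, by distance from the centre of the run in kb, with filled circles for regions with an adjusted p under 0.05. The upper row shows the 4 runs with the most falls after TDCIPP (9, 9, 8 and 7 filled circles), and the lower row, among runs with at least 5 crowded regions, the 2 with the highest median TDCIPP fold (0.36 each) and the DAC runs with the highest (0.91) and lowest (-0.67) median fold.

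After DAC, 0 crowded regions passed, against 0% of the whole table, by the authors' adjusted p. With unadjusted p-values under 0.05 from the authors' deposited table, 11 crowded regions (0.312%) were lower and 16 (0.454%) higher, against 0.251% and 0.755% over the whole table. Evenly spread p-values would put a fraction of 0.05 of all regions under this limit, far more than was found. The deposited DAC p-values thus ran high, for a cause not tested, and 0 calls does not show that no region changed. The median DAC fold of crowded regions was 0.12 (quartiles -0.18 to 0.37), against 0.09 in all comparison regions and 0.17 in comparison regions of like level, in the authors' deposited table. Folds above 0 were found in 61.9% of crowded regions, in 58.0% of comparison regions and in 66.2% of comparison regions of like level. With the median DAC fold of the whole table, 0.10, taken off every fold, 51.8% of crowded regions were above 0. Crowded regions thus had higher DAC folds than comparison regions as a whole and lower ones than those of like level, and DAC folds were higher at higher levels in both sets up to a level of 8. Between levels 4 and 5 the median fold was 0.05 in crowded and 0.09 in comparison regions, and between 6 and 7 it was 0.35 in both, by the authors' deposited table. Below a level of 3 the order was the other way, with -0.12 in crowded and -0.19 in comparison regions in the authors' deposited table.

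The crowded regions with the smallest p after DAC did not pass. On chromosome 14 at 558483 to 560255 the level was 5.71 after DAC and 4.27 in DMSO (log2 fold 1.44, unadjusted p = 0.00294), by the authors' deposited table. On chromosome 13 at 15314461 to 15315340 it was 4.41 after DAC and 3.04 in DMSO (unadjusted p = 0.00385), by the authors' deposited table. On chromosome 15 at 14816474 to 14818381 it was 3.52 after DAC and 4.69 in DMSO (log2 fold -1.17, unadjusted p = 0.00703), by the authors' deposited table. The crowded region of chromosome 24 at 42143266 to 42146469 had 50.6 reads after DAC and 350 in DMSO (log2 fold -2.78, unadjusted p = 0.00888), by the authors' deposited table. Several of these regions rest on few reads, with 11.5 after DAC against 25.8 in DMSO for the chromosome 15 region and 21.3 against 8.22 for that of chromosome 13.

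Among the DAC runs with at least 5 crowded regions, the highest median fold, 0.91, lay on chromosome 15 from 16452299 to 16507451, where 14 of 14 folds were between 0.69 and 1.02 in the authors' deposited table. Their lowest unadjusted p was 0.12 in the authors' deposited table. Next in that order were 2 runs with a median of 0.68, that of chromosome 6 from 24223346 to 24295346 with 6 of 6 folds above 0 and that of chromosome 3 from 8949719 to 9031573 with 7 of 7, by the authors' deposited table. The lowest medians among runs of this size were -0.67 on chromosome 10 from 21675283 to 21728862, with 9 of 9 folds below 0, and -0.64 on chromosome 14 from 1924591 to 2084219, with 23 of 23 below 0, in the authors' deposited table. Median levels of these 2 runs were low, at 3.03 and 3.69 in the authors' deposited table. Of 252 DAC runs with at least 5 crowded regions, 25 had every fold above 0 and 10 every fold below 0. The largest run of the DAC table, with 58 crowded regions on chromosome 20 from 54175047 to 54688804, had 47 folds above 0 and 11 below (median 0.29), in the authors' deposited table. Next in size were runs of 46 crowded regions on chromosome 22 from 299893 to 786562 (median fold 0.20) and of 42 on chromosome 8 from 53872298 to 54268882 (median -0.05), in the authors' deposited table. Another 3 large runs, on chromosome 17 from 533435 to 947118, chromosome 5 from 72096811 to 72462903 and chromosome 21 from 27031 to 395993, had medians of 0.03, 0.09 and 0.18 by the authors' deposited table. A further pair leaned the other way, with 28 of 32 folds below 0 on chromosome 8 from 34447810 to 34703900 and 24 of 31 on chromosome 16 from 36251448 to 36482459 (medians -0.36 and -0.34 in the authors' deposited table).

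**Figure D4:**
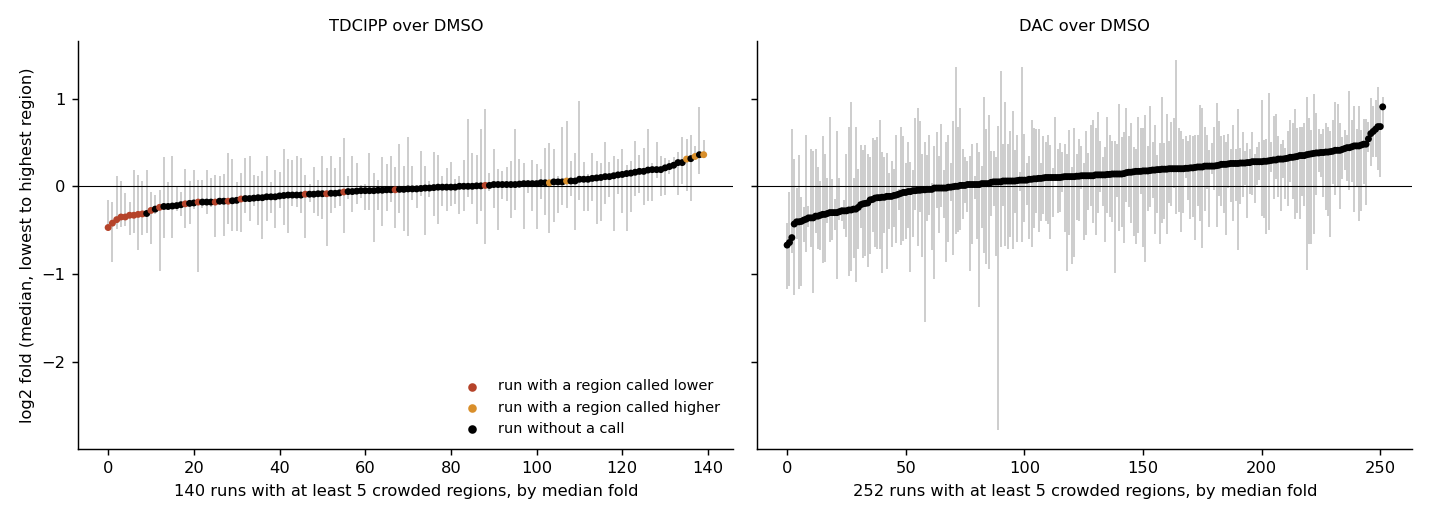
Runs with at least 5 crowded regions, ordered by median log2 fold, 140 runs after TDCIPP (left) and 252 after DAC (right). Points are run medians, grey lines reach from the lowest to the highest fold of the run, and colour marks runs with a region called lower or higher. After TDCIPP 82 medians were below 0 and 54 above, and after DAC 71 were below and 179 above.

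The compounds had separate controls, so that their folds at the same regions could be set side by side. Of the 1645 crowded regions of the TDCIPP table, 1315 shared a base with a region of the DAC table, and 1022 of these (77.7%) had a DAC fold above 0. The share was close to that of the 16968 regions found in both tables and crowded in neither, of which 74.6% had a DAC fold above 0 (median 0.22), by the authors' deposited table. Of the 67 crowded falls, 60 were present there, and all 60 had a DAC fold above 0 (median 0.31, range 0.07 to 0.92) by the authors' deposited table. These 60 lay in 21 runs and had a median DAC level of 7.49. Falls of chromosome 10 at 29852380 to 29853440 and 29854217 to 29855758 had the same DAC fold (0.67) and deposited unadjusted p (0.526). A DAC region could be matched more than once, so the 60 falls may stand for fewer DAC regions. DAC comparison regions with a level between 7 and 8 had a median fold of 0.40 and were above 0 in 94.5% of cases. At a level of 8 and above, comparison regions had a median of 0.27 and 66.2% above 0. Crowded regions there had 0.22 and 68.1%, by the authors' deposited table. The falls' median of 0.31 lay between these comparison medians. The chromosome 25 runs with 9 and 7 falls had median DAC levels of 8.26 and 8.22. How many of the 60 falls stood at 8 and above was not counted, and the shares were not tested. Crowded regions that were not called had a DAC fold above 0 in 76.8% of cases, and those of them with a level of 10 and above in 84.7% (72 of 85). Uncalled crowded regions with a level of 10 and above and a TDCIPP fold below 0 had one in 44 of 45 cases, so a high share was not confined to the called regions. Of the 9 crowded rises, 6 were found there, and 3 of these were above 0 after DAC. None of these DAC folds passed its own test.

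By run, 92 runs with at least 5 crowded regions in the TDCIPP table also held at least 5 crowded regions of the DAC table. Medians were below 0 after TDCIPP and above 0 after DAC in 54 of them, and above 0 after both in 24. They were above 0 after TDCIPP and below 0 after DAC in 10, and below 0 after both in 1. Most DAC medians were thus above 0 on either side of 0 after TDCIPP. The part of this, and of read level, in the count of 54 was not tested. Across the 92 runs, which share their libraries, the correlation of medians was -0.364, given as a description. Over the 867 regions crowded in both tables the correlation of folds was -0.285, and over 16968 shared regions crowded in neither it was -0.158. A TDCIPP fold below 0 with a DAC fold above 0 was found in 435 of these 867 and in 6677 of these 16968 regions. These sets were not matched for read level, whose part in the shares and correlations was not tested. In comparison regions, TDCIPP folds below 0 made up 40.2% under a level of 5.71 and 73.2% between 9 and 10. DAC folds above 0 made up 33.1% of them under a level of 3 and 94.7% between 6 and 7. The run of chromosome 17 from 23309741 to 23386888, with 17 of 17 TDCIPP folds below 0, had 15 of 15 DAC folds above 0 (0.10 to 0.53) in the authors' deposited table. The chromosome 10 run from 16794028 to 16840734, with 7 of 7 TDCIPP folds above 0, had 5 of 5 DAC folds below 0 (-0.39 to -0.24) in the authors' deposited table. On chromosome 24 from 4946827 to 5012202, 11 crowded regions had TDCIPP folds from 0.10 to 0.51 and 8 had DAC folds from -0.50 to -0.14 in the authors' deposited table. The chromosome 15 run with the highest median DAC fold among runs of at least 5 crowded regions had TDCIPP folds from -0.08 to 0.07 at its 9 crowded regions from 16474426 to 16507257 in the authors' deposited table.

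**Figure D5:**
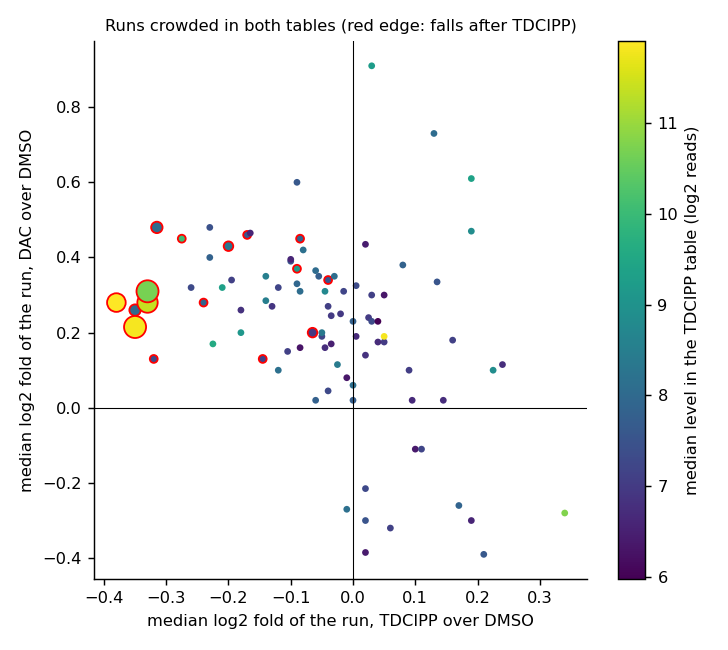
The 92 runs crowded in both tables, by median log2 fold of TDCIPP over DMSO (horizontal) and of DAC over DMSO (vertical). Colour gives the median level in the TDCIPP table, and red edges with larger points mark runs with more regions called lower after TDCIPP. In 54 runs the median was below 0 after TDCIPP and above 0 after DAC, and in 24 it was above 0 after both.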

How the data were processed

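ATAC-seq of 12 libraries was compared in 2 deposited tables, TDCIPP and DAC, each over its own DMSO controls. Per the submitters' processing notes, DiffBind, MACS2, Bowtie2, deepTools and Picard were used on build GRCz11. How reads were shifted for the transposase, duplicates handled, libraries scaled and p-values computed was not given in the sources used here. Per the file headers, the authors deposited log2 levels, a log2 fold and p-values (unadjusted and adjusted) per region. In every row the fold matches treated level less DMSO level to 0.01. The DAC table's header names its treated group 5AzaC, and the labels' name is used. There were 0 columns for single libraries, so no SD, standard error or test of replicates was computed. Normalized reads are known only as group means, and sequencing depth is not known from them.

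Neighbours were counted from region midpoints, runs were joined at 50000 bp, and a call was the authors' adjusted p under 0.05, all with Python 3.11.15, numpy 2.4.6 and pandas 2.3.3. Comparison regions were weighted to the crowded regions' spread over 20 level classes of equal size, so that levels could still differ within the top class. The counting was tested on simulated data. The crowded regions and the tests were chosen with earlier results of these data known. The rule for named regions took, among called crowded regions, the 6 largest falls and 6 largest rises and the 2 smallest p in each direction. Where none passed, it took the 3 smallest unadjusted p in each direction. It also took the 3 regions with the most neighbours, the 8 largest runs, the 4 with the most falls and with the most rises, and, among runs with at least 5 crowded regions, the 2 with the lowest and the 2 with the highest median fold. Other regions and runs were chosen after their values were seen.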

Additional observations from a re-analysis of the deposited data

How the results depend on the processing

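No paired analysis was possible because each deposited column is a group's mean, and leaving out a replicate was not run for the same reason. Crowded regions called lower after TDCIPP (4.07%) came to 2.19% at an adjusted p under 0.01, 5.17% under 0.1, 2.53% with at least 6 neighbours, 7.14% with 12, 5.91% with 16 within 100000 bp, 5.28% at widths from 1000 bp, and 2.91% without runs of 10 or more. Below a level of 10, a limit chosen after seeing the data, it was 1.72%. The excess over regions of like level (2.36 points) was 3.63 with 12 neighbours, 3.86 within 100000 bp and 0.509 below a level of 10. Regions called higher (0.547%) came to 0.182% and 1.09% at those adjusted p, 0% with 12 neighbours, 0% within 100000 bp and 1.19% without long runs. Their difference from like level (0.138 points) was -0.480, -0.458 and 0.798 under the last 3. With 12 neighbours the median TDCIPP fold (-0.04) was 0.01, its difference (-0.01) 0.06, the percent below 0 (55.7%) 46.7% and its difference (0.989 points) -13.7. With 6 neighbours these differences were -0.03 and 4.54, and from 1000 bp the second was -0.435. With 1 value per run, 59.6% were below 0. After DAC, centring gave a median of 0.02 and 51.8% above 0, 1 value per run 67.6%, and 12 neighbours 64.4%. The difference of the DAC median (-0.05) was -0.03 with 6 neighbours, -0.09 with 12 and -0.02 without long runs, and that of the percent above 0 (-4.29 points) was -2.31, -8.14 and -1.50. The cause of these changes was not tested. The excess called lower was 1.44 points at an adjusted p under 0.01, 1.49 with 6 neighbours and 1.43 without long runs. The difference called higher was 0.0771 at that p, 0.0830 with recomputed adjustment, 0.0534 with 6 neighbours and 0.0699 with chromosome 4 kept, and was 0.260 at an adjusted p under 0.1. The difference in percent below 0 after TDCIPP was 2.00 points with level by width classes and 1.69 within 100000 bp. DAC calls, recomputed only with a fresh Benjamini-Hochberg adjustment, were again 0. Group means alone limit precision: no interval can be given for a region.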

Other observations

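Nearly even spacing was seen along a run of chromosome 13 and in part of a run of chromosome 15. Both were looked at only after their values had been seen. Among 84 runs with at least 8 crowded regions in the TDCIPP table, the coefficient of variation of the distance between midpoints had a median of 0.524. It was 0.0387 in the run of chromosome 13 from 25313453 to 25365431, the next lowest being 0.266. There, 12 crowded regions of 956 to 1251 bp followed each other at 4092 to 4802 bp. Their TDCIPP folds lay between -0.18 and 0.03, with levels from 6.74 to 8.27 and 0 calls, in the authors' deposited table. The same place was the most evenly spaced of 178 such runs in the DAC table, with a coefficient of 0.0484. All 12 DAC folds there were above 0, from 0.23 to 1.01, with 0.0474 as the smallest unadjusted p, by the authors' deposited table.

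The chromosome 15 run with the highest median DAC fold among runs of at least 5 crowded regions was even only in part. Along the whole run the coefficient of variation was above 0.562, the median of the 178 DAC runs with at least 8 crowded regions. The last 12 of the 14 crowded regions of this chromosome 15 run followed each other at 2108 to 2314 bp (coefficient of variation 0.0263). Their levels lay between 6.65 and 7.38 and their DAC folds between 0.72 and 1.02, in the authors' deposited table. How reads with several matches were assigned, a point not given in the sources used here, was not tested.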
